A study of Mus musculus with 11 samples.

Results

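The 10 genes described here encode PIWI proteins and the factors that make their small RNAs, and their transcripts were followed in whole mouse testes in which Nrf1, Dnmt3C or both had been removed. The members were picked by gene name from the 33188 genes of the count tables: Piwil2, Piwil4, Mov10l1, Mael, Asz1, Pld6, Gtsf1, Henmt1, Exd1 and Fkbp6. All 10 were present in the tables, and all 10 passed the filter on low counts. Poly-A RNA of dissected testes from postnatal day 5 (P5) was sequenced in 11 libraries. They were 2 from wild-type mice (WT), 3 labelled Dnmt3CKO/KO (Dnmt3C KO), 3 labelled Nrf1KO/KO (Nrf1 cKO) and 3 that carry both genotypes (dKO). Dnmt3C KO is a constitutive knockout of a de novo DNA methyltransferase. In Nrf1 cKO and dKO, a floxed Nrf1 allele over a deleted one was removed in germ cells by a Ddx4-Cre (Vasa-Cre) driver around the end of gestation, so somatic cells kept an allele. According to the methods of the study, controls were littermates where possible, and 1 library of each genotype was left out by the authors for low RNA quality. Whether a library came from 1 animal is not given in the sources used here, so p-values measure the spread between these libraries.

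piRNAs are small RNAs of the germ line that are bound by PIWI proteins and guide them to transposon transcripts. Long precursor transcripts are unwound and cut at the surface of mitochondria and in the adjacent germ granules, the fragments are loaded on PIWI proteins, and their 3′ ends are trimmed and methylated. In the fetal mouse testis the loaded PIWI proteins cut transposon transcripts in the cytoplasm and direct DNA methylation of transposon promoters in the nucleus, and mutants of most of these factors are sterile as males. Nrf1 encodes a transcription factor that binds a GC-rich palindrome in many CpG-rich promoters.

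For that reason the regions before the start sites of the members are shown first. RefSeq windows on GRCm38.p6, from 250 bases before to 50 bases after a start site, were matched by symbol for 9 of the 10 members (Piwil2 had no entry in the table used), with 12 windows in all. A gene was counted once if any of its windows held a match. The known NRF1 site is made of 2 copies of GCGC with A and T between them. A looser form was searched on both strands: GCGC, 2 bases and GCGC again, with A after the first copy or T before the second. It was chosen after the sequences had been seen. This pair was found in 6 of the 9 members (Piwil4, Mov10l1, Asz1, Pld6, Henmt1 and Exd1) and in 5.19% of all 27025 genes with a window. Among the 11843 genes with a window of at least 11 CpG, the lowest number in a member with a match, 11.5% held it in such a window. The stretches below are written 5′ to 3′ on the strand of the gene and show each match in capitals, beside Gtsf1 and Mael, which had no match.

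Asz1, chr6:18109062-18109161, minus strand: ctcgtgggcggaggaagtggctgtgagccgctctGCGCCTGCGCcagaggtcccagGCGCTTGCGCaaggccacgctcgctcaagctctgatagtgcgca
Mov10l1, chr15:88982794-88982893, plus strand: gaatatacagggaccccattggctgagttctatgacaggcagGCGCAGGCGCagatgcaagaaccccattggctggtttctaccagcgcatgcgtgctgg
Exd1, chr2:119547628-119547727, minus strand: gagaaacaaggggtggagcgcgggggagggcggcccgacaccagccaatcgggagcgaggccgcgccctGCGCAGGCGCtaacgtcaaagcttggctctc
Pld6, chr11:59787658-59787757, minus strand: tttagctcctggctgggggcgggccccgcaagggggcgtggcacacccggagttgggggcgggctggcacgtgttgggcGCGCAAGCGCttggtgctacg
Piwil4, chr9:14740712-14740741, minus strand: cgcccatcatGCGCCTGCGCattctggggg
Henmt1, chr3:108940372-108940401, plus strand: agggcgcagaGCGCAGGCGCgaggcgcagg
Gtsf1, chr15:103430478-103430577, minus strand: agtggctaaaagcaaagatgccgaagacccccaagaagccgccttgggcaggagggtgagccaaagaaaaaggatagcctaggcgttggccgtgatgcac
Mael, chr1:166238749-166238848, minus strand: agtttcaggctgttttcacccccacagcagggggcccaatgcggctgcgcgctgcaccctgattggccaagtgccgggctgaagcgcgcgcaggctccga

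Asz1 was the only member with 2 matches, which begin 66 and 44 bases before its start site. The matches of Exd1, Pld6, Piwil4, Mov10l1 and Henmt1 begin 31, 21, 59, 158 and 175 bases before theirs. GENCODE M21 places a first exon of another transcript over the Piwil4 and Henmt1 matches, so only 30 bases are shown there. Both matches lie inside the GENCODE M21 span of the member itself, so their distances hold only for the RefSeq start sites. The full palindrome, with both A and T and contained in the looser form, was found in 0 of the 9 members and in 1.07% of all genes. In the Mov10l1 stretch, the lower-case letters gcgcatgcgt differ from the full palindrome only in the last base and were not counted as a match. The letters CACGTG (an E-box, the same on both strands, which can share at most an end letter with the pair) were found in 4 of the 9 (Mov10l1, Mael, Pld6 and Fkbp6) and in 8.09% of all genes (11.8% of those with a window of at least 11 CpG). A match says only that these letters are in the window, and binding was not analysed here.

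The libraries held between 26063590 and 39365841 counts (median 33862160). The labels' title names germ cells and the protocol names whole testis, and the counts were those of a whole testis: all 11 Sertoli cell markers and 26 of the 27 germ cell markers listed were detected in every library. The germ cell marker score, the mean log2 CPM (counts scaled to library size) of these 27 genes, includes no piRNA pathway gene. Of its markers, Rarg and Ccnd2 are also expressed by somatic cells. As mean ± SD, WT scored 3.56 ± 0.35 (n = 2), Dnmt3C KO 3.71 ± 0.30 (n = 3), Nrf1 cKO 2.53 ± 0.48 (n = 3) and dKO 3.08 ± 0.54 (n = 3). Libraries with Nrf1 deleted were lower by a mean of 0.85 on the log2 scale (exact two-sided permutation test, p = 0.0173). For the Sertoli markers, WT scored 7.20 ± 0.24 (SD, n = 2), Dnmt3C KO 7.26 ± 0.23 (n = 3), Nrf1 cKO 7.55 ± 0.57 (n = 3) and dKO 7.49 ± 0.10 (n = 3). The score of the 5 endothelial markers was 4.78 to 4.82 in WT and 4.99 to 5.54 in Nrf1 cKO, without overlap. In dKO it was 4.03 to 4.95, which overlapped both WT and Dnmt3C KO (4.44 to 4.95). The score of the 5 red blood cell markers was 6.50 to 8.22 in WT and 5.42 to 7.89 in Nrf1 cKO. It was 6.15 to 6.73 in Dnmt3C KO and 5.32 to 6.68 in dKO. The part of these cells in the results was not tested. The Nrf1-deleted libraries were uneven. Nrf1 cKO replicate 1 had a germ cell score of 3.05, against 2.11 and 2.42 for replicates 2 and 3, and dKO replicates 1 and 2 had 3.35 and 3.44, against 2.45 for replicate 3. The description of Nrf1 cKO replicate 1 writes cKO where those of replicates 2 and 3 write KO, under the same genotype label. What this difference means is not given in the labels. In bulk RNA of this kind, fewer germ cells and less RNA per germ cell cannot be told apart. Counts of the whole Nrf1 gene did not check the deletion: WT held 57.5 ± 0.71 CPM (SD, n = 2) against 55.4 ± 2.91 for Nrf1 cKO (n = 3). For Dnmt3c, WT held 4.51 ± 0.50 CPM (SD, n = 2) against 3.79 ± 0.75 for Dnmt3C KO (n = 3).

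The first question was how much of each transcript a wild-type testis held at P5. Per kilobase of exon, Fkbp6 and Mael led in WT with levels of 28.4 ± 0.11 and 27.9 ± 2.33 CPM per kb (SD, n = 2). Fkbp6 encodes an immunophilin that works with HSP90 when piRNAs are loaded, and Mael encodes Maelstrom, a germ granule protein. Then followed Piwil2 at 8.55, Mov10l1 at 8.26, Gtsf1 at 6.17, Asz1 at 3.51 and Pld6 at 2.79 CPM per kb. Piwil4 at 1.01, Henmt1 at 0.601 and Exd1 at 0.536 CPM per kb were lowest. The ranges of the 2 WT libraries overlapped between Fkbp6 and Mael, between Piwil2 and Mov10l1, between Asz1 and Pld6, and between Henmt1 and Exd1, so these neighbours were not separated. Piwil4 and Henmt1 overlap genes on the opposite strand, and the authors counted with strand. Short RNA genes lie on the same strand within Piwil2 and Mov10l1.

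**Figure D1:**
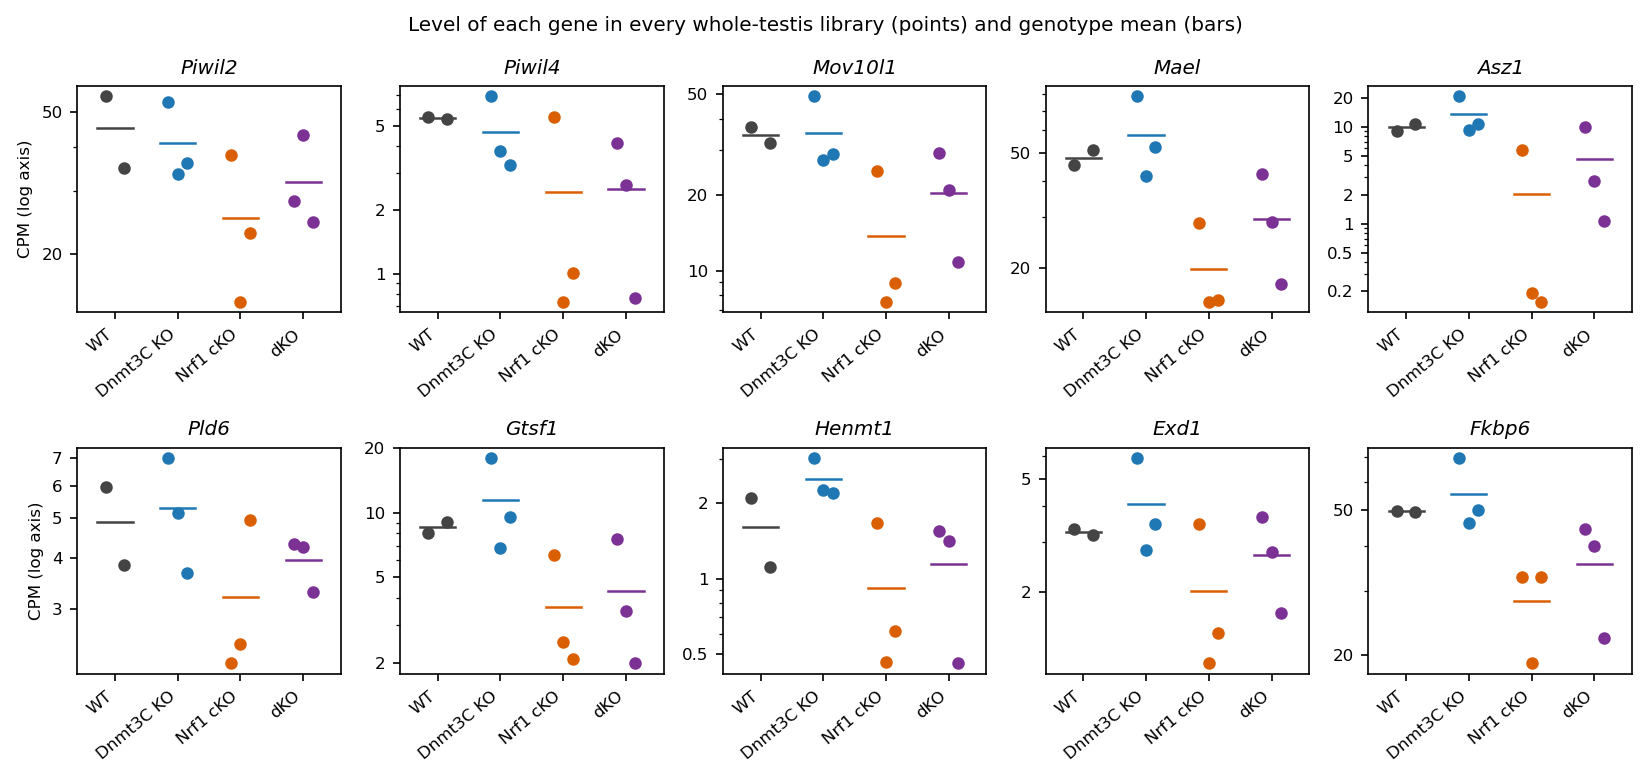
Level of each member in CPM (log axis) in the 11 libraries, by genotype, with a point for each library and a bar for the genotype mean. In Nrf1 cKO, Asz1 lay at 5.80 CPM in replicate 1 and at 0.191 and 0.155 CPM in the other libraries, while Fkbp6 lay below both WT libraries in all 3.

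Asz1 varied most. It encodes GASZ, a scaffold of the mitochondrial outer membrane that holds the germ granule material between mitochondria (ENSMUSG00000010796.11, GRCm38 chromosome 6 from 18050964 to 18109061, minus strand). WT gave 9.18 and 10.7 CPM, and Dnmt3C KO gave 20.7, 9.38 and 10.7 CPM. Nrf1 cKO gave 5.80, 0.191 and 0.155 CPM, and dKO gave 10.0, 2.78 and 1.07 CPM. All 3 Nrf1 cKO libraries lay below both WT libraries, and replicates 2 and 3 lay far below any library with Nrf1 intact, whereas dKO replicate 1 lay inside the Dnmt3C KO range. Nrf1 cKO replicates 2 and 3 rested on 7 and 4 counts, with exact Poisson 95% intervals of 0.0766 to 0.393 and 0.0422 to 0.397 CPM that cover counting error only, against 191 counts in replicate 1.

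For Nrf1 deletion averaged over both Dnmt3C backgrounds, the edgeR quasi-likelihood fit put the Asz1 log2 fold change at -1.91 with a standard error (SE) of 0.72, and the adjusted p, by the Benjamini-Hochberg method over all features, was 0.517. Without Nrf1 cKO replicate 1 it was -3.67 (edgeR adjusted p = 0.0326), which misses the threshold of 0.01. On the scale of mean log2 CPM, where each library counts alike, the Nrf1-deleted libraries lay 3.05 below the intact ones (exact two-sided permutation test, p = 0.0195). Against WT the Nrf1 cKO libraries had a log2 fold change of -2.27 (SE 1.06, edgeR adjusted p = 0.888), and without replicate 1 this became -5.81 (edgeR adjusted p = 0.000445). dKO had -1.55 against Dnmt3C KO (SE 0.64, edgeR adjusted p = 0.675), or -2.84 without dKO replicate 1 (edgeR adjusted p = 0.222).

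The other proteins at the mitochondrial surface and in precursor processing were Mov10l1 and Pld6. Mov10l1 encodes the RNA helicase that feeds precursors into processing (ENSMUSG00000015365.15, chromosome 15 from 88982909 to 89055152, plus strand). WT gave 37.1 and 32.0 CPM, and Dnmt3C KO gave 49.0, 27.5 and 28.8 CPM. Nrf1 cKO gave 24.8, 7.54 and 8.98 CPM, and dKO gave 29.3, 20.9 and 10.9 CPM. All Nrf1 cKO libraries and all dKO libraries lay below both WT libraries, and again replicates 2 and 3 of Nrf1 cKO were lowest. Nrf1 deletion gave a log2 fold change of -1.05 (SE 0.31, edgeR adjusted p = 0.421). Pld6 encodes the mitochondrial endonuclease that forms the 5′ ends of piRNAs (ENSMUSG00000043648.7, chromosome 11 from 59783897 to 59787645, minus strand). It was the member with the smallest difference, -0.51 (SE 0.25, edgeR adjusted p = 0.609), and its order over libraries was not that of the others: Nrf1 cKO replicate 3, at 4.96 CPM, was within the WT range of 3.85 to 5.94 CPM, while replicates 1 and 2 had 2.22 and 2.48 CPM. The Pld6 difference was -0.34 without WT replicate 1 and -0.74 without Nrf1 cKO replicate 3. In the latter fit another member was nearest to 0, at -0.54.

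Mael and Gtsf1 act in germ granules. Mael (ENSMUSG00000040629.8, chromosome 1 from 166201201 to 166238747, minus strand) had levels in WT of 45.4 and 51.1 CPM, and Dnmt3C KO gave 78.8, 41.8 and 52.6 CPM. Nrf1 cKO gave 28.5, 15.2 and 15.4 CPM and dKO gave 42.2, 28.7 and 17.5 CPM. Every Nrf1 cKO and dKO library lay below both WT libraries, and dKO replicate 1 alone reached into the Dnmt3C KO range. Its log2 fold change for Nrf1 deletion was -1.13 (SE 0.24, edgeR adjusted p = 0.228), with an adjusted p of 0.00223 in the DESeq2 Wald test. Mael was the only member called by DESeq2 in that comparison. Gtsf1 encodes a small zinc finger protein that speeds target cleavage by PIWI proteins (ENSMUSG00000022487.14, chromosome 15 from 103402405 to 103430470, minus strand). WT gave 8.07 and 9.08 CPM, and Dnmt3C KO gave 18.0, 6.87 and 9.59 CPM. Nrf1 cKO gave 6.38, 2.50 and 2.09 CPM, and dKO gave 7.51, 3.49 and 1.99 CPM. Here too all libraries of Nrf1 cKO and of dKO were below WT. Gtsf1 had the second lowest fold change of the members, -1.31 (SE 0.37, edgeR adjusted p = 0.390).

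The PIWI proteins themselves differed less evenly. Piwil2 encodes MILI, the cytoplasmic PIWI protein that cuts transposon transcripts (ENSMUSG00000033644.5, chromosome 14 from 70372477 to 70429383, minus strand). WT gave 55.4 and 35.0 CPM, and Dnmt3C KO gave 53.5, 33.6 and 36.0 CPM. Nrf1 cKO gave 38.0, 14.7 and 22.9 CPM, and dKO gave 28.2, 43.1 and 24.6 CPM. The genotypes overlapped, since Nrf1 cKO replicate 1 and dKO replicate 2 lay inside the range of the intact libraries. Nrf1 deletion gave a log2 fold change of -0.60 (SE 0.24, edgeR adjusted p = 0.535). Piwil4 encodes MIWI2, the nuclear PIWI protein that directs DNA methylation in fetal germ cells (ENSMUSG00000036912.18, chromosome 9 from 14696230 to 14740733, minus strand). WT gave 5.51 and 5.41 CPM, and Dnmt3C KO gave 6.89, 3.81 and 3.27 CPM. Nrf1 cKO gave 5.53, 0.735 and 1.01 CPM, and dKO gave 4.13, 2.63 and 0.764 CPM. Nrf1 cKO replicate 1 matched WT, and replicates 2 and 3 held 27 and 26 counts. Nrf1 deletion gave -1.03 (SE 0.50, edgeR adjusted p = 0.608), and -1.77 with Nrf1 cKO replicate 1 left out (edgeR adjusted p = 0.107). In Nrf1 cKO over WT alone the value was -1.17, and -2.67 with that library left out (edgeR adjusted p = 0.0182).

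Loading and 3′ end formation were represented by Fkbp6, Exd1 and Henmt1. Fkbp6 (ENSMUSG00000040013.11, chromosome 5 from 135291704 to 135350044, minus strand) had levels in WT of 49.8 and 49.6 CPM, and Dnmt3C KO gave 69.7, 46.0 and 50.3 CPM. Nrf1 cKO gave 32.7, 19.0 and 32.9 CPM and dKO gave 44.6, 39.9 and 22.3 CPM. It was the only member for which all 6 Nrf1-deleted libraries lay below all 5 intact ones, a separation that 0.451% of the 22594 features tested showed in that direction. Its log2 fold change was -0.73 (SE 0.19, edgeR adjusted p = 0.356, and 0.0489 in DESeq2). Henmt1, the methyltransferase of piRNA 3′ ends (ENSMUSG00000045662.17, chromosome 3 from 108939873 to 108960774, plus strand), ranged from 0.458 to 1.67 CPM in the Nrf1-deleted libraries and from 1.11 to 3.04 CPM in the others. Exd1, a partner of the PIWI and Tudor complex that feeds MIWI2 with piRNAs (ENSMUSG00000048647.9, chromosome 2 from 119516505 to 119547627, minus strand), ranged from 1.12 to 3.66 CPM with Nrf1 deleted and from 2.80 to 5.92 CPM with it intact. Their log2 fold changes were -0.97 (Henmt1, SE 0.38, edgeR adjusted p = 0.539) and -0.64 (Exd1, SE 0.32, edgeR adjusted p = 0.617). Without Nrf1 cKO replicate 1 they were -1.35 and -0.97 (edgeR adjusted p = 0.181 and 0.244). Nearest to 0 were -0.69 for Henmt1 without WT replicate 1 and -0.45 for Exd1 without Dnmt3C KO replicate 1.

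For the effect of Nrf1 deletion over both backgrounds, all 10 members thus had a fitted log2 fold change below 0, from -0.51 to -1.91 with a median of -0.998, where 49.5% of all 22594 features were below 0 and the median of all was 0.00. The edgeR test called 0 of the 10 at an adjusted p under 0.01. It called 0.00443% of all features as lower, which was 1 gene (the tubulin gene Tuba3a, named after its value was seen), and 0% as higher. At an unadjusted p under 0.05, 7 members were lower (Asz1, Fkbp6, Gtsf1, Henmt1, Mael, Mov10l1 and Piwil2) and 0 higher, against 4.66% of all features lower. The 7 became 4 without Dnmt3C KO replicate 1 (3.48% of features lower). They became 1 (Asz1) when libraries were scaled to germ cell markers, a scaling described further on that shifts all features upward (0.332% of them lower). DESeq2 called 1 member lower, Mael, and 0.217% of all features. In the exact permutation tests over single members (two-sided, p not adjusted over the 10 tests), Mael and Fkbp6 gave p = 0.00649, Gtsf1 0.0130, Asz1 and Mov10l1 0.0195, Henmt1 0.0368, Piwil2 0.0563, Piwil4 0.0649, Pld6 0.0844 and Exd1 0.0931.

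**Figure D2:**
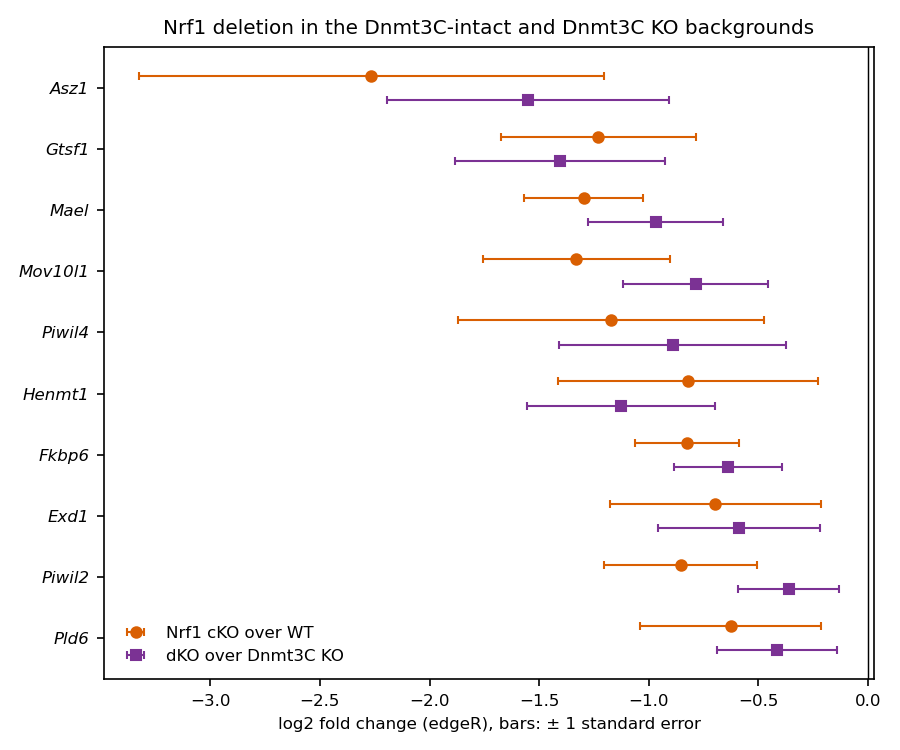
Log2 fold change of each member (points, with bars of 1 standard error, edgeR) in Nrf1 cKO over WT and in dKO over Dnmt3C KO, ordered by the average of both. All 20 points lie below 0, from -2.27 (Asz1, Nrf1 cKO over WT) to -0.36 (Piwil2, dKO over Dnmt3C KO), and the bars of every pair overlap.

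The next question was whether Nrf1 deletion acted alike with and without Dnmt3C. In Nrf1 cKO over WT the log2 fold changes of the members lay between -2.27 (Asz1) and -0.63 (Pld6), and in dKO over Dnmt3C KO between -1.55 (Asz1) and -0.36 (Piwil2). 5 of the 10 members (Mov10l1, Mael, Asz1, Gtsf1 and Fkbp6) had all Nrf1 cKO libraries below both WT libraries, as did 11.6% of the 21296 features tested. Henmt1 and Fkbp6 had all dKO libraries below all Dnmt3C KO libraries, as did 6.90% of 20783 features. The edgeR test called 0 members in either comparison, with 0% of all features called. At an unadjusted p under 0.05 there were 5 members lower in Nrf1 cKO over WT (4.22% of all features) and 6 that were lower in dKO over Dnmt3C KO (4.08%), and DESeq2 called 0 in either (0.117% and 0.0866% of features lower). The 5 became 2 without WT replicate 1, 3 without Nrf1 cKO replicate 2 and 9 without Nrf1 cKO replicate 1, where 2.75%, 2.74% and 5.01% of features were lower. With dKO replicate 3 left out the 6 became 3 (3.11% of features), and with Dnmt3C KO replicate 1 left out 0 (2.47%). Each became 1 (Asz1) under germ cell marker scaling, with 0.141% and 0.25% of features lower. The members nearest to 0 moved too: Pld6 in Nrf1 cKO over WT was at -0.25 without WT replicate 1 and at -1.07 without Nrf1 cKO replicate 3, and Piwil2 in dKO over Dnmt3C KO at -0.12 without Dnmt3C KO replicate 1 and at -0.65 without dKO replicate 2. Without Nrf1 cKO replicate 1, edgeR called 3 members lower in Nrf1 cKO (Asz1, Mael and Mov10l1) and 0.119% of all features. With that library kept but no filter on low counts, it called the same 3 and 0.371% of all features.

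The difference between the 2 backgrounds, tested as an interaction on all 11 libraries, lay between -0.32 (Henmt1) and 0.71 (Asz1) on the log2 scale. It was called for 0 members and 0% of features, with 0 members at an unadjusted p under 0.05 and 0 by DESeq2. The standard error was 1.42 for Asz1 and between 0.39 and 1.01 for the other members, so differences of this size were not resolved. Henmt1 was at -0.86 without WT replicate 1 and at 0.46 without Nrf1 cKO replicate 1. The Asz1 value rested on single libraries as well: it was -0.57 without dKO replicate 1 and 4.24 without Nrf1 cKO replicate 1, and edgeR called it in neither fit (lowest adjusted p 0.705). Without Nrf1 cKO replicate 1, 4 members (Asz1, Mov10l1, Piwil2 and Piwil4) were above 0 at an unadjusted p under 0.05, against 4.26% of features. Without dKO replicate 1, 7 of the 10 values were below 0, against 2 with all libraries.

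For loss of Dnmt3C, averaged over both Nrf1 backgrounds, the members lay between -0.09 (Piwil4) and 0.81 (Asz1) on the log2 scale, with SEs of 0.50 and 0.73. The edgeR test called 0 members and 0% of features, with 0 members at an unadjusted p under 0.05, and DESeq2 called 0 members and 0.128% of features, all higher. These values moved with single libraries. Asz1 was at 2.58 without Nrf1 cKO replicate 1 and at 0.17 without dKO replicate 1, and without Nrf1 cKO replicate 1 there were 5 members higher at an unadjusted p under 0.05 (Asz1, Exd1, Henmt1, Mael and Mov10l1, against 2.44% of features), while without dKO replicate 3 there were 2 (2.44% of features). Under scaling to germ cell markers 6 of the 10 values were below 0. In Dnmt3C KO over WT the log2 fold changes ran from -0.23 (Piwil4) to 0.63 (Henmt1), with 8 of 10 above 0. Without Dnmt3C KO replicate 1, 8 of 10 were below 0, and under germ cell marker scaling 5 were. With all libraries none was below an unadjusted p of 0.05 (edgeR called 0 members and 0% of features, DESeq2 0 members, with 0.102% of features higher and 0.00923% lower). Henmt1 was at 0.26 without WT replicate 2 and at 1.17 without WT replicate 1, and Piwil4 at -0.61 without Dnmt3C KO replicate 1 and at -0.03 without Dnmt3C KO replicate 3. Henmt1 was the only member with all Dnmt3C KO libraries above both WT libraries, a pattern of 9.78% of the 21664 features. Dnmt3C KO replicate 1 had the highest level of all libraries for every member except Piwil2, for which WT replicate 1 was higher. In dKO over Nrf1 cKO all 10 values were above 0, from 0.05 (Piwil4) to 1.17 (Asz1), and edgeR and DESeq2 each called 0 (DESeq2 called 0.0540% of features higher), with 0 members at an unadjusted p under 0.05. No member separated the dKO from the Nrf1 cKO libraries, in either direction, against 4.14% of features above and 3.29% below. Without dKO replicate 1 the Asz1 value was -0.11, and without Nrf1 cKO replicate 1 it was 4.70. Without dKO replicate 1, 3 of the 10 values were below 0, and under germ cell marker scaling 7 were. Without Nrf1 cKO replicate 1, 6 members were higher at an unadjusted p under 0.05 (Asz1, Exd1, Mael, Mov10l1, Piwil2 and Piwil4, against 2.63% of features).

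The remaining pairs cross both genes. dKO over WT gave values from -1.12 (Piwil4) to -0.26 (Exd1), and Dnmt3C KO over Nrf1 cKO gave values from 0.70 (Piwil2) to 2.71 (Asz1). Without dKO replicate 1 the Asz1 value in dKO over WT was -2.38, below that of every other member, and without Nrf1 cKO replicate 1 its value in Dnmt3C KO over Nrf1 cKO was 6.25. With a library left out, Piwil4 in dKO over WT lay between -1.70 (without dKO replicate 1) and -0.69 (without dKO replicate 3) and Exd1 between -0.56 and -0.02 (the same libraries), and 2 members, Henmt1 and Pld6, lay above 0 without WT replicate 1. Piwil2 in Dnmt3C KO over Nrf1 cKO lay between 0.42 (without Nrf1 cKO replicate 2) and 1.14 (without Nrf1 cKO replicate 1). Under germ cell marker scaling 3 values of dKO over WT were above 0 and 5 of Dnmt3C KO over Nrf1 cKO were below 0. edgeR called 0 members in both and 0% of features. At an unadjusted p under 0.05 there were 2 members lower in the first (Mael and Mov10l1, against 1.19% of features) and 6 higher in the second (Asz1, Fkbp6, Gtsf1, Henmt1, Mael and Mov10l1, against 6.27% of features). The 2 became 0 without WT replicate 1 (1.98% of features lower) or dKO replicate 3 (1.58%), 1 without WT replicate 2 (0.693%), 6 without dKO replicate 1 (2.19%) and 0 under germ cell marker scaling (0.261%). The 6 became 4 without Dnmt3C KO replicate 1 (4.43% of features higher) or Nrf1 cKO replicate 2 (5.7%), 9 without Nrf1 cKO replicate 1 (6.92%) and 1 (Asz1) under germ cell marker scaling (0.48%). In dKO over WT, 5 members (Piwil4, Mov10l1, Mael, Gtsf1 and Fkbp6) had every dKO library below both WT libraries, as had 6.76% of 21488 features, and DESeq2 called 0. In Dnmt3C KO over Nrf1 cKO, 6 members (Mov10l1, Mael, Asz1, Gtsf1, Henmt1 and Fkbp6) had every Dnmt3C KO library above every Nrf1 cKO library, as had 9.45% of 20642 features, and DESeq2 called 2 (Mael and Fkbp6) and 0.940% of all features as higher. Asz1 was called there by edgeR without Nrf1 cKO replicate 1 (0.0748% of features higher) and under germ cell marker scaling (0.203%), and Mael without the filter on low counts (0.228%). All these comparisons share libraries and are given side by side only.

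**Figure D3:**
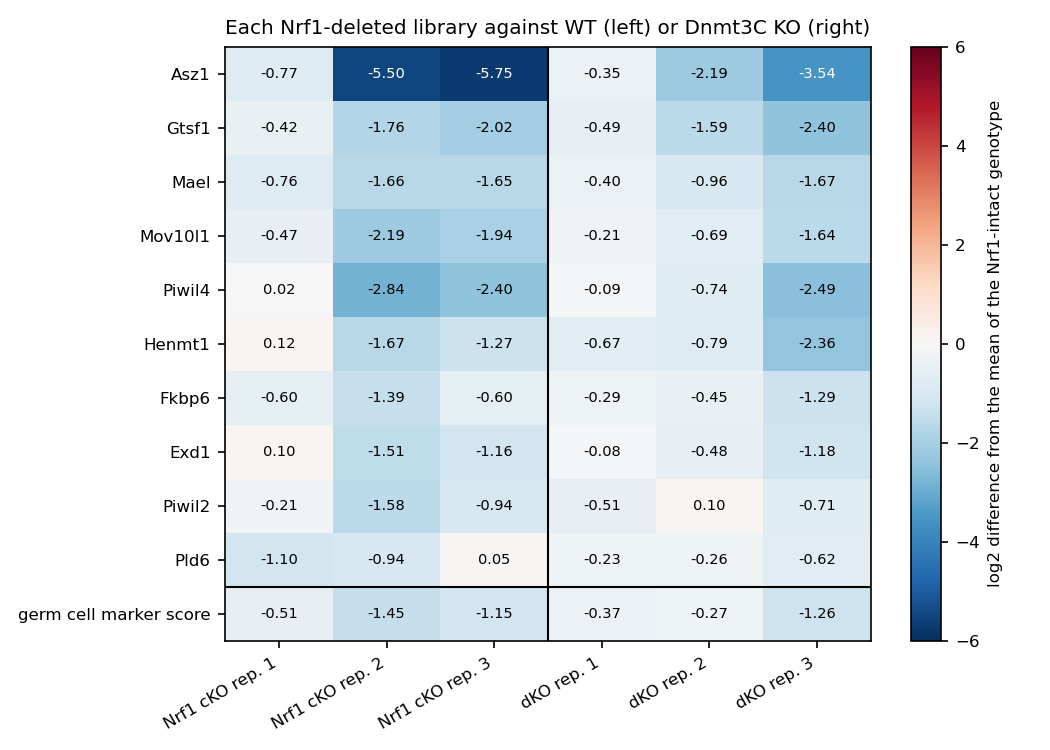
Log2 difference of each Nrf1-deleted library from the mean of its Nrf1-intact genotype (WT for Nrf1 cKO, Dnmt3C KO for dKO), for the members and, in the lowest line, the germ cell marker score. Blue is lower. Asz1 reaches -5.50 and -5.75 in Nrf1 cKO replicates 2 and 3, where the score is at -1.45 and -1.15.

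The members were then set beside the germ cell markers, which moved with them. In Nrf1 cKO replicates 1, 2 and 3 the germ cell score lay at -0.51, -1.45 and -1.15 relative to the WT mean on the log2 scale, and in dKO at -0.37, -0.27 and -1.26 relative to Dnmt3C KO. Asz1 lay at -0.77, -5.50 and -5.75 in Nrf1 cKO and at -0.35, -2.19 and -3.54 in dKO. In replicate 1 of each genotype Asz1 was near the score, and in the other 4 libraries it was lower than the score. The score is a mean, and single markers spread around it: for Nrf1 deletion they ran from -2.19 (Rhox13, an X-linked homeobox gene, lower than Asz1 at -1.91) to 0.25 (Cdh1). Of the markers that somatic cells also express, Rarg was at -0.13 and Ccnd2 at 0.22. Fkbp6 showed no gap like that of Asz1. Its values were -0.60, -1.39 and -0.60 for Nrf1 cKO and -0.29, -0.45 and -1.29 for dKO.

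With the score subtracted, Asz1 was lower by 2.20 in the Nrf1-deleted libraries (exact two-sided permutation test, p = 0.0303), Gtsf1 by 0.63 (p = 0.0671) and Mael by 0.35 (p = 0.0498). The other members lay between -0.55 (Piwil4) and 0.32 (Pld6), with permutation p between 0.0887 and 0.673, and none of these p was adjusted over the members. When the libraries were instead scaled to equal germ cell markers, which shifts the median of all features to 0.88, Asz1 had a log2 fold change of -1.36 and was called (edgeR adjusted p = 0.00925), as the only member. Of the germ cell markers, Rhox13 was called lower too. Under this scaling 0.0531% of all features were called lower and 2.72% higher, and Piwil2, Pld6, Exd1 and Fkbp6 turned to 0.21, 0.40, 0.12 and 0.07. The part of germ cell number in the difference of each member was not tested beyond these values.

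**Figure D4:**
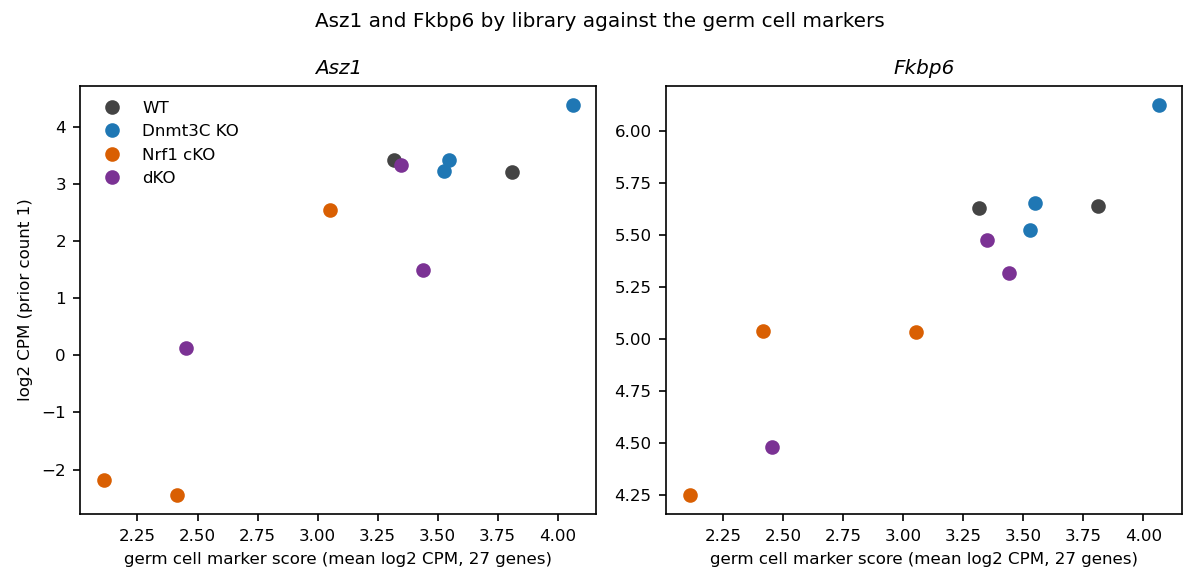
Level of Asz1 (left) and Fkbp6 (right) in log2 CPM against the germ cell marker score (mean log2 CPM of 27 genes), with a point for each of the 11 libraries colored by genotype. Nrf1 cKO replicates 2 and 3 lie at germ cell scores of 2.11 and 2.42, where Asz1 is at its lowest.

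The other genes of the pathway were taken from a list of 23. For Nrf1 deletion 18 of the 23 had a value below 0 (median -0.72), where 49.5% of all features did. At an unadjusted p under 0.05, 11 were lower and 0 higher, against 4.66% of all features lower. The edgeR test called 0, against 0.00443% of features called lower. The 12 germ granule and processing genes, which hold the Tudor domain proteins and the helicase Ddx4, had a median of -0.94 with 11 of 12 below 0. The 6 genes of the nuclear arm had a median of -0.39 with 4 below 0. Without Nrf1 cKO replicate 1 these medians were -1.15 and -1.10, and under germ cell marker scaling -0.22 and 0.29, and the difference between the 2 lists was not tested. Under that scaling 8 of the 12 germ granule and processing genes were below 0, where 4.16% of features were. At an unadjusted p under 0.05, 1 of them was lower and 2 higher, against 0.332% of features lower and 14832 of 22594 higher. The lowest of the 23 were Tdrd12, the Tudor partner of Exd1 (-1.69, SE 0.48), Piwil1, the PIWI protein of later meiotic and haploid cells (-1.39, SE 0.73), and Tex15, a nuclear effector of PIWI-directed methylation (-1.24, SE 0.37). Their adjusted p were 0.390, 0.623 and 0.421 (edgeR). Piwil1 was near the floor, at 0.0544 and 0.155 CPM in Nrf1 cKO replicates 2 and 3 and at 0.0306 CPM in dKO replicate 3. Highest were Tdrd6 at 0.31 (SE 0.51) and the DNA methyltransferase genes Dnmt3a at 0.25 and Dnmt3c at 0.04. Tdrd6 was low as well, between 0.232 and 1.24 CPM over the libraries. The germ cell markers had a median of -0.75, with 24 of 27 below 0 and 15 lower at an unadjusted p under 0.05, and the Sertoli markers a median of 0.36, with 0 of 11 below 0. Ddx4 itself had -0.98 (SE 0.23, edgeR adjusted p = 0.270) and was called lower by DESeq2.

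Members with and without the GCGC pair in their promoters did not separate. The 6 members with a match had log2 fold changes for Nrf1 deletion from -0.51 (Pld6) to -1.91 (Asz1), and the 3 with a window but no match had -0.73 (Fkbp6), -1.13 (Mael) and -1.31 (Gtsf1). Among the 23 other pathway genes, 15 had a promoter entry and 5 of these held the pair (Tdrd1, Tdrd5, Tdrd7, Gpat2 and Stk31).

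The members followed each other closely over the 11 libraries, which share the germ cell content just described. Pearson's r of a member with the mean of the other members lay between 0.858 (Piwil2) and 0.986 (Mov10l1) for 9 of them and was 0.528 for Pld6. With the germ cell score r was between 0.879 (Gtsf1) and 0.962 (Mov10l1), and 0.645 for Pld6. The genes most like the mean standardised level of the members were Sohlh2, a transcription factor of differentiating spermatogonia (r = 0.990), the Tudor domain genes Tdrd1 and Tdrd5 (r = 0.983 for each), Slc25a31, an ADP/ATP carrier of the germ line (r = 0.977), and the unnamed gene Gm31579 (r = 0.977). These r are given as a description over the 11 libraries of 4 genotypes.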

How the data were processed

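Poly-A RNA from whole testes was sequenced with a stranded mRNA kit. The authors aligned reads to GRCm38 with STAR 2.7.3a and counted genes (GENCODE M25) and transposable element (TE) subfamilies with TEtranscripts, which shares reads that map to many copies, and deposited the raw counts as one table per pair of genotypes. These tables also hold the fold changes and p-values of the authors' DESeq2 1.44.0 comparisons, which were not used. A TPM table of single TE copies was not used either. Reads of near-identical copies can be shared among features by this counting.

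The pairwise tables were joined (0 counts differed between them) into 33188 genes and 1088 TE subfamilies in 11 libraries of 26063590 to 39365841 counts. Genotypes were taken from the labels. Features were filtered with filterByExpr, scaled by TMM and tested with the quasi-likelihood test of edgeR 4.0.16 in R 4.3.3, with Benjamini-Hochberg adjustment over all features and a threshold of 0.01. Effects over both backgrounds and the interaction were fitted on all 11 libraries, and pairs of genotypes on their own libraries. Log2 CPM used a prior count of 1, and single values were compared by exact permutation (scipy 1.17.1). Alternatives were the DESeq2 1.42.0 Wald test and size factors, no filter, a threshold of 0.05, a replicate block, gene-only library sizes, all genotypes in one fit, scaling to germ cell markers, a prior count of 0.25, rank correlation and leaving out each library. The scripts were tested on simulated data. Every member is named. Of the other pathway genes, the 3 lowest and 3 highest for Nrf1 deletion are named, and those called in a fit on all libraries. The 5 genes most like the members by Pearson's r are named too. The members and lists were chosen with earlier results of these data known. Promoter sequences are those of RefSeq on GRCm38.p6, and gene positions those of GENCODE M21 on GRCm38.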

Additional observations from a re-analysis of the deposited data

How the results depend on the processing

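For Nrf1 deletion over both backgrounds, 1 member was called with DESeq2 (Mael) and 1 when libraries were scaled to germ cell markers (Asz1), against 0 in the reported test. In Nrf1 cKO over WT, 3 members were called without a filter on low counts (Asz1, Mael and Mov10l1, with 122 of 32905 features lower), and 0 to 3 when a library was left out, the 3 being those without Nrf1 cKO replicate 1. In Dnmt3C KO over Nrf1 cKO, 2 were called by DESeq2 (194 of 20642 features higher), 1 without the filter (76 of 33271), 1 with germ cell marker scaling (42 of 20642) and 0 to 1 with a library left out. Scaling to germ cell markers moved the median of all features to 0.88 for Nrf1 deletion and to 1.06 for Nrf1 cKO over WT, and it turned the sign of log2 fold changes in every comparison. The values given in the report became, for Nrf1 deletion, Piwil2 0.21, Pld6 0.40, Exd1 0.12 and Fkbp6 0.07, for Nrf1 cKO over WT Piwil2 0.12, Pld6 0.52, Henmt1 0.11, Exd1 0.19 and Fkbp6 0.18, for dKO over Dnmt3C KO Piwil2 0.28, Pld6 0.26 and Exd1 0.04, for dKO over Nrf1 cKO Piwil4 -0.38, for Dnmt3C KO over Nrf1 cKO Piwil2 -0.41, and for dKO over WT Exd1 0.15. Of the 10 members, it left 7 below 0 in dKO over Nrf1 cKO, 6 for Dnmt3C loss and for the interaction, 5 in Dnmt3C KO over WT and in Dnmt3C KO over Nrf1 cKO, and 3 above 0 in dKO over WT. With a library left out, the Piwil4 value ranged from -0.38 to 0.65 for Dnmt3C loss and from -0.53 to 1.54 in dKO over Nrf1 cKO, the Henmt1 value from -0.86 to 0.46 for the interaction, and the Asz1 value from -0.57 to 4.24 for the interaction and from -0.11 to 4.70 in dKO over Nrf1 cKO. The cause of these changes was not tested. Depth was lowest for Asz1, with 7 and 4 counts in the lowest libraries, then for Henmt1 (15 to 17) and Piwil4 (25 to 27).

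With the replicate number of the sample titles as a block (column headings number the third Dnmt3C KO library 4 and the third dKO library 5), 4 members were called in Nrf1 cKO over WT (Asz1, Mael, Mov10l1 and Fkbp6, with 71 of 21296 features lower) and Piwil4 had 0.14 for Dnmt3C loss. The block changed no other count of members called. Deviations of same-numbered libraries correlated at -0.233 to 0.221 over 15 pairs, with 3 above 0.1, and 3 of 11 libraries correlated best with their own number, so the numbers were not taken as a pairing. By Spearman's correlation, 1 of the 5 genes most like the members was shared (Sohlh2). Of the refitted values that the report gives for single members, 299 with a library left out and 269 under other settings kept their sign and their side of the threshold, and 11 and 16 changed sign. Values of members not given singly in the report changed sign as well, as the counts above show.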
